A study of Homo sapiens with 8 samples.

Results

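The genes described here make, package, take back and break down catecholamines. They are the 8 genes TH, DDC, DBH, GCH1, SLC18A1, SLC18A2, SLC6A2 and MAOA, matched by symbol in both count tables. All 8 are among the 17927 genes of the RNA-seq table and 7 are among the 14019 genes of the Ribo-seq table, where TH is not listed. They were measured in SH-SY5Y cells, a widely used human line grown from a neuroblastoma, a tumour of the sympathetic lineage. Knockdown cells carried a short hairpin RNA against RPS29 (shRPS29), a protein of the small ribosomal subunit, and control cells carried a control hairpin (shCONT). RNA-seq of total RNA and Ribo-seq, which counts the RNA fragments protected by ribosomes, each had 2 knockdown and 2 control libraries. The labels give no time after knockdown, no second hairpin and no statement that replicates came from separate cultures, so p-values measure the spread between these libraries, which may be technical.

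Catecholamines are made from tyrosine. TH hydroxylates it to L-DOPA, the rate-limiting step, using tetrahydrobiopterin, a cofactor whose synthesis starts with GCH1. DDC converts L-DOPA to dopamine and DBH, inside the secretory vesicle, converts dopamine to noradrenaline. The vesicular transporters VMAT1 (SLC18A1) and VMAT2 (SLC18A2) load the amines into vesicles, the noradrenaline transporter (SLC6A2) takes noradrenaline back up, and MAOA, on the outer mitochondrial membrane, deaminates it.

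RefSeq promoter windows (GRCh38.p14), from 250 bases before to 50 bases after the annotated start, were found for 4 of the 8 genes. The windows of DBH, of the 2 starts of DDC and of SLC18A2 are printed 5′ to 3′ on the gene's strand. They were chosen because DDC was the only one of the 8 genes called in RNA by the main test. DBH had the largest difference in footprints per RNA among the 6 genes tested, and SLC18A2 had few counts in either assay. Capitals mark every TGACG, the core of a cAMP response element, and every ATTA, the core bound by homeodomain factors such as PHOX2A, on either strand (CGTCA and TAAT on the other).
DBH chr9:133636113-133636412 (+): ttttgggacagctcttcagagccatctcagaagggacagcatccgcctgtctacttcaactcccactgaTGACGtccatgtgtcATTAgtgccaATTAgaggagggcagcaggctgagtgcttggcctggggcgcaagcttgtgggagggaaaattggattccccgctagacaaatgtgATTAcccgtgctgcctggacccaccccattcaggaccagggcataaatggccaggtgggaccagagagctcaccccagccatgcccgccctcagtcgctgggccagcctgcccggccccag
DDC, upstream start, chr7:50565356-50565655 (-): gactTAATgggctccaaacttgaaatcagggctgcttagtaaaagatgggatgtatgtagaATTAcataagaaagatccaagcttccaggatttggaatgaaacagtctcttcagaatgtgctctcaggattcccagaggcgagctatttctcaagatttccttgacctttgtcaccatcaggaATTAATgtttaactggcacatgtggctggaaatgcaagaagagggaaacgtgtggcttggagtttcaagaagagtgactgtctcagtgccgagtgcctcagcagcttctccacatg
DDC, downstream start, chr7:50561022-50561321 (-): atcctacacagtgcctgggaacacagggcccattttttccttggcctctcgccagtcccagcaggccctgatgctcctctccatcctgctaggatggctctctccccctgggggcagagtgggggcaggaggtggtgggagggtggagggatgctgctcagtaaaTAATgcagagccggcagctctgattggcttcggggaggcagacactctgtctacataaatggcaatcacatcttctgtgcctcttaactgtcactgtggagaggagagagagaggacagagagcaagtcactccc
SLC18A2 chr10:117240864-117241163 (+): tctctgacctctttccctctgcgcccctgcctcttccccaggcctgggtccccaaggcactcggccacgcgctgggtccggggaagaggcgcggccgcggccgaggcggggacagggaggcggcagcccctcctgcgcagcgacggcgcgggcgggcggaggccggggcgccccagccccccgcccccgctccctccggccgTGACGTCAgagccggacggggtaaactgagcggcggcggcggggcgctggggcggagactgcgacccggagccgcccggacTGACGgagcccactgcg
DBH held 1 TGACG, whose first base lies at position -181 from the start, and 3 ATTA, at -166, -156 and -71. The upstream start of DDC held 4 ATTA, of which a pair overlap, and the downstream start 1, with no TGACG in either. SLC18A2 held the full TGACGTCA at -48, which contains a TGACG on each strand, and another TGACG at 34, and no ATTA. Of all 35116 such windows, 24.6% held TGACG, 1.85% held TGACGTCA and 50.2% held ATTA. The GATA motif AGATAA was in none of these 4 windows and in 10.3% of all. The TATA motif TATAAA was likewise in none of the 4 and in 11.5% of all. The E-box CANNTG had 3 matches in DBH and 3 in the upstream DDC window, none in the other 2, and was in 68.7% of all. These matches are letters in the reference and were not measured as binding. No window is printed for TH, GCH1, SLC18A1, SLC6A2 or MAOA.

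Total counts ranged from 17539104 to 19156104 per library in RNA-seq and from 2630463 to 4375971 in Ribo-seq. The 8 genes took 0.183 and 0.201% of RNA-seq counts in the knockdown and 0.181 and 0.179% in the controls, and 0.0209 and 0.0279% of Ribo-seq counts in the knockdown against 0.0569 and 0.0522% in the controls. RPS29 RNA was at 6.99 ± 0.762 CPM (TMM-scaled counts relative to library size) in the knockdown and 148.5 ± 16.4 CPM in the controls (SD, n = 2 each), lower in both libraries labelled as knockdown. Ribo-seq replicates were far less alike than RNA-seq replicates. Ribo-seq knockdown replicate 1 had Spearman correlations across genes of 0.732 with the other knockdown library and 0.528 and 0.455 with the controls. Knockdown replicate 2 was at 0.743 and 0.692 with the controls, so it was more like control replicate 1 than like its own replicate. The 2 Ribo-seq controls were at 0.827 with each other, and RNA-seq pairs ranged from 0.985 to 0.993. Between 35.3 and 52.3% of the counts of a Ribo-seq library fell on its top 4 genes. Markers of noradrenergic neuroblastoma cells (7 of 7 listed) summed to 4657 and 4629 CPM of RNA in the knockdown against 5224 and 5440 CPM in the controls, and of footprints to 320 and 651 CPM in the knockdown against 1025 and 1072 CPM in the controls. In RNA, ISL1 and CHGB of the 7 were called higher and STMN2 and CHGA lower by edgeR, PHOX2A, HAND2 and GATA3 did not pass, and the median log2 fold change was 0.12. Of all genes tested in RNA-seq, 14.4% were called higher and 16.3% lower. Glial, epithelial and endothelial markers summed to at most 2.23 CPM in any RNA-seq library, and blood markers, chiefly CD68, to 11.2 and 14.5 CPM in the knockdown against 6.71 and 7.86 CPM in the controls. Their part in the results was not tested.

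The first comparison was of RNA levels. Of the 7 genes that passed the count filter, DDC was lower in the knockdown and the other 6 did not pass the test (edgeR quasi-likelihood test, Benjamini-Hochberg adjusted p below 0.05 over 14723 genes). Over all genes tested, 16.3% were called lower and 14.4% higher, so 1 lower and 0 higher of 7 is not more than the background. At an unadjusted p below 0.05 the number was 3 of 7, against 5953 of all 14723 genes tested. The median log2 fold change of the 7 was -0.21, against 0.01 over all genes tested. In these bulk samples, fewer cells of a type and less RNA per cell cannot be told apart.

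TH RNA was almost absent. It lies on chromosome 11, positions 2163929 to 2171815, and had 1 and 0 counts in the knockdown against 4 and 2 in the controls. A count of 0 in a library of this depth allows up to 0.154 to 0.169 CPM, for counting error only. With so few counts TH did not pass the filter and no fold change is given. The labelled cell line thus showed noradrenergic regulators and DBH, but hardly any RNA of the first enzyme of the pathway.

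DDC, on chromosome 7, positions 50458442 to 50565405, had 3232 and 2951 counts (166 and 163 CPM) in the knockdown and 3491 and 3365 counts (197 and 188 CPM) in the controls. Both knockdown libraries lay below both controls. The RNA fell by 0.23 on the log2 scale (log2 fold change -0.23, SE 0.0696, adjusted p = 0.0227), with a 95% interval of -0.37 to -0.08. The call ended without control replicate 1 (-0.19, adjusted p = 0.328) and without control replicate 2 (-0.26, adjusted p = 0.149). Over the 4 RNA-seq libraries, the RNAs with the pattern most like DDC were RNF187, HP1BP3 and TMBIM6, whose centred log2 CPM differed from that of DDC by a root mean square of 0.00197, 0.00871 and 0.00899, among 9587 protein-coding genes with at least 10 CPM in every library.

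DBH, on chromosome 9, positions 133636363 to 133659329, had 24894 and 24915 counts (1276 and 1375 CPM) in the knockdown and 22541 and 22882 counts (1270 and 1275 CPM) in the controls. The lower knockdown library and the higher control library were at 1275.7 and 1275.4 CPM. The log2 fold change was 0.06 (SE 0.0777, adjusted p = 0.617), with a 95% interval of -0.11 to 0.22. The antisense gene DBH-AS1, which overlaps DBH and whose reads would be mixed with it if strand was not used in counting, had 45 and 52 counts in the knockdown and 49 and 32 in the controls.

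GCH1, on chromosome 14, positions 54842017 to 54902826, was at 46.0 and 51.0 CPM in the knockdown and at 51.2 CPM in both controls (log2 fold change -0.08, SE 0.0856, adjusted p = 0.527). SLC6A2, on chromosome 16, positions 55655988 to 55706192, was at 262.6 and 304.9 CPM in the knockdown and at 270.2 and 276.1 CPM in the controls, with the controls between the knockdown libraries. Its log2 fold change of 0.05 (SE 0.0788, adjusted p = 0.645) was 0.15 and called without knockdown replicate 1 (adjusted p = 0.0254), and -0.05 without knockdown replicate 2 (adjusted p = 0.514). No direction is therefore given for the noradrenaline transporter.

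The remaining genes were lower in both knockdown libraries or had few counts. SLC18A1, on chromosome 8, had 641 and 619 counts (32.8 and 34.2 CPM) in the knockdown and 696 and 691 (39.2 and 38.5 CPM) in the controls, with log2 fold change -0.21 (SE 0.0913, adjusted p = 0.0910). MAOA, on chromosome X, positions 43655006 to 43746817, had 355 and 348 counts (18.2 and 19.2 CPM) in the knockdown and 386 and 421 (21.8 and 23.5 CPM) in the controls, with log2 fold change -0.27 (SE 0.113, adjusted p = 0.0802). MAOA was called without knockdown replicate 2 (-0.31, adjusted p = 0.0495). The groups of both genes did not overlap, as for DDC and, narrowly, GCH1. DBH alone was higher in both knockdown libraries. Of all genes tested, 32.9% had both knockdown libraries below both controls and 32.3% above. SLC18A2, on chromosome 10, positions 117241114 to 117279430, had 7 and 14 counts in the knockdown and 16 and 13 in the controls, at most 0.902 CPM, with overlapping groups (log2 fold change -0.53, SE 0.550, adjusted p = 0.509). Its span overlaps PDZD8, which had 1449 and 1376 counts in the knockdown and 1107 and 1080 in the controls, so even these few counts are uncertain.

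**Figure D1:**
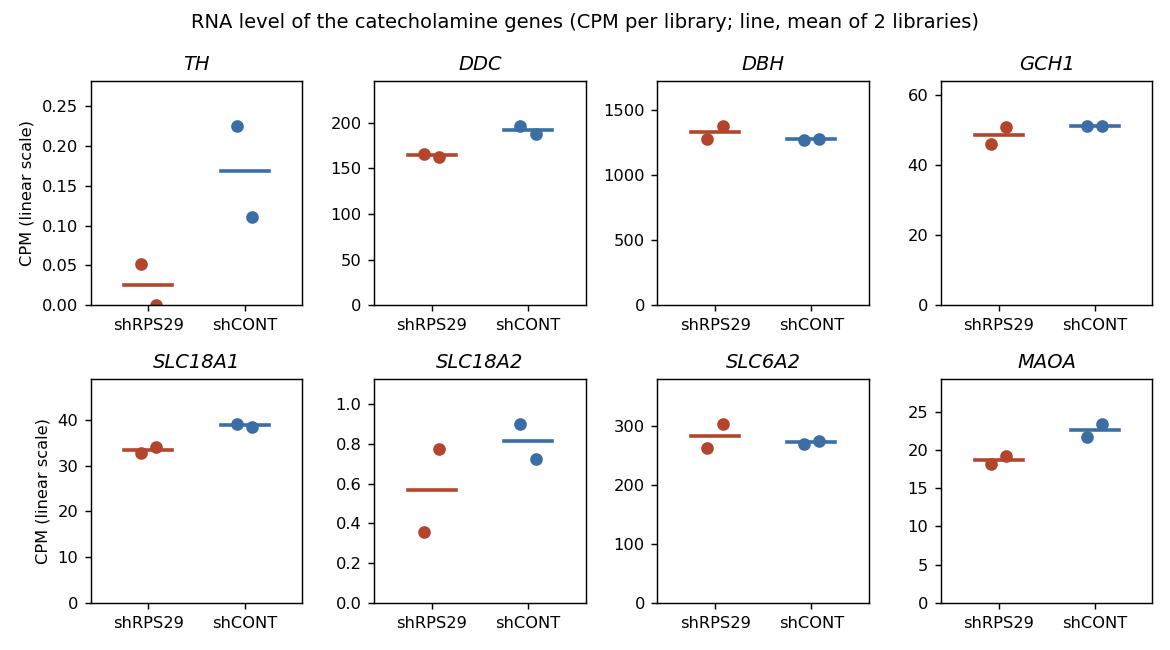
RNA level of each of the 8 genes, in CPM on a linear axis of its own, with knockdown libraries (shRPS29) left of control libraries (shCONT). Each point is a library and each line the mean of 2. DDC, SLC18A1 and MAOA sit lower in both knockdown libraries, DBH and SLC6A2 do not, and TH and SLC18A2 stay under 1 CPM.

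Other genes of catecholamine metabolism were read from lists written with earlier results of these data known. Of 6 tetrahydrobiopterin cofactor genes 5 were tested and 0 were called by edgeR, DESeq2 or limma-voom (median log2 fold change 0.11). In edgeR 0 of the 5 had an unadjusted p below 0.05, against 5953 of all 14723 genes tested. The cofactor synthesis enzymes PTS (22.2 ± 4.44 CPM in the knockdown, 20.4 ± 0.437 CPM in the controls) and SPR (knockdown 30.6 ± 2.01, control 29.7 ± 2.86 CPM), the recycling enzymes QDPR (knockdown 65.6 ± 3.07, control 60.6 ± 2.15 CPM) and PCBD1 (knockdown 72.3 ± 7.68, control 76.2 ± 3.02 CPM), and PCBD2 (knockdown 15.4 ± 1.11, control 14.3 ± 1.10 CPM) did not pass the test (SD, n = 2 each).

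Among 13 genes for handling amines beyond the 8, 9 were tested, 2 rose and 2 fell, with a median log2 fold change of -0.14. Over all genes tested 14.4% rose and 16.3% fell. CYB561, the vesicle membrane cytochrome that regenerates the ascorbate used by DBH, was at 766.2 ± 60.1 CPM in the knockdown and 593.9 ± 8.01 CPM in the controls (0.37, SE 0.0778, adjusted p = 0.00238). The aldehyde reductase AKR1A1 was at 84.7 ± 0.796 CPM in the knockdown and 71.6 ± 0.636 CPM in the controls (0.24, adjusted p = 0.0235). SLC29A4, the plasma membrane monoamine transporter, fell to 119.6 ± 6.78 CPM in the knockdown, against 176.4 ± 1.37 CPM in the controls (-0.56, SE 0.0725, adjusted p = 5.07e-05). ALDH2, which oxidises the aldehydes made by monoamine oxidase, fell to 84.5 ± 5.88 CPM in the knockdown, against 103.2 ± 2.57 CPM in the controls (-0.29, adjusted p = 0.0116). These are means with SD of 2 libraries each. The calls of CYB561, AKR1A1 and ALDH2 ended without either control replicate, that of AKR1A1 also with the replicate block (adjusted p = 0.0608), while SLC29A4 was called in all 10 alternatives. MAOB (-0.14), ALDH3A2 (-0.15), AKR1B1 (-0.15) and the amino acid transporter SLC7A5 (-0.06) did not pass the test, with adjusted p between 0.117 and 0.601.

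Of 14 catecholamine receptor genes 4 were tested in RNA-seq and 0 passed in edgeR, DESeq2 or limma-voom. Of the 4, 2 had an unadjusted p below 0.05 in edgeR, against 5953 of all 14723 genes tested. ADRA2C, an inhibitory adrenoceptor, was at 37.7 ± 1.86 CPM in the knockdown and 32.4 ± 1.40 CPM in the controls (adjusted p = 0.0960), and the dopamine receptor DRD2 at 13.2 ± 1.41 CPM in the knockdown and 17.0 ± 1.00 CPM in the controls (adjusted p = 0.0517).

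Regulators of noradrenergic identity went both ways, with 4 of 9 tested higher, against 14.4% of all genes, and 1 lower, against 16.3%, and a median log2 fold change of 0.18. TBX2, a T-box factor, rose to 305.0 ± 11.6 CPM in the knockdown, against 145.2 ± 4.05 CPM in the controls (1.07, SE 0.0708, adjusted p = 1.60e-07). HAND1 (0.41), ISL1 (0.38) and GATA2 (0.30) also rose, and TFAP2B (-0.54, adjusted p = 4.09e-05) fell. The call of GATA2 ended without either control replicate and with the replicate block (adjusted p = 0.0764). PHOX2A (0.18), HAND2 (0.04), GATA3 (0.12) and CREB1 (0.01), of which PHOX2A is known to act on the DBH promoter, did not pass in edgeR, with adjusted p between 0.0860 and 0.964. DESeq2 called PHOX2A higher (adjusted p = 0.0441) and limma-voom did not (adjusted p = 0.0682).

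**Figure D2:**
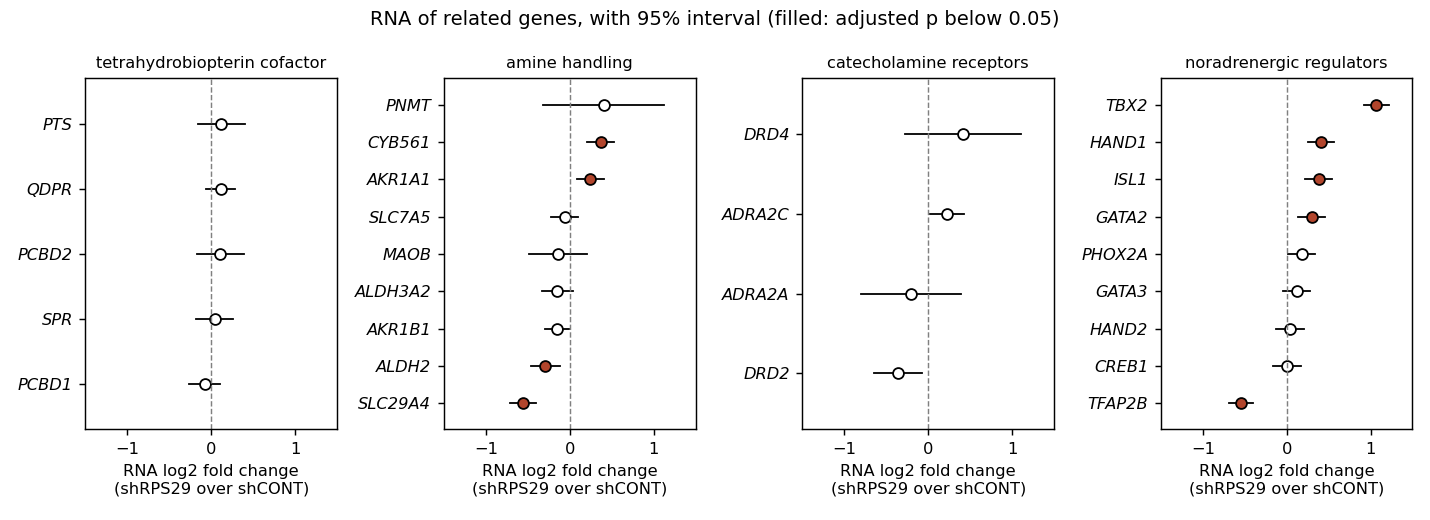
RNA log2 fold change (knockdown over control) of the tested genes of 4 related lists, with 95% intervals from edgeR. Filled points have an adjusted p below 0.05. TBX2 stands highest at 1.07, and SLC29A4 and TFAP2B lowest at -0.56 and -0.54.

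The second question was whether ribosome footprints on these genes differ. None of the 6 genes tested was called higher or lower by edgeR, and 0 of 6 had an unadjusted p below 0.05. DESeq2 and limma-voom likewise called 0. Over all 11853 genes tested, 7.96% were called higher and 0.607% lower, and 2735 had an unadjusted p below 0.05. The median log2 fold change of the 6 was -0.68. Over all genes tested it was 0.04, and over 9099 genes with at least 10 RNA CPM it was -0.21, of which 58.5% were below 0. DBH, DDC, GCH1, SLC18A1 and SLC6A2, 5 of the 6, had both knockdown libraries below both controls, a pattern seen in 26.7% of genes tested, with the opposite in 29.0%. The 6 genes all had at least 10 RNA CPM. The share with this pattern among such genes was not computed, so no result is drawn from it.

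DBH had 266 and 623 footprint counts in the knockdown and 878 and 1081 in the controls. Scaled, these were 111 and 156 CPM in the knockdown and 262 and 328 CPM in the controls, so the groups did not overlap. The log2 fold change was -1.14 (SE 0.570, adjusted p = 0.244), with a 95% interval of -2.35 to 0.06. It lay between -1.49 and -0.89 in all 13 alternatives and was called in none of those with a test. Of the 7 noradrenergic markers, 2 were called lower in footprints and 0 higher, against 0.607% lower and 7.96% higher of all genes tested. Those of CHGA, a vesicle core protein that drives granule formation, were at 39.1 and 104 CPM in the knockdown and 282 and 340 CPM in the controls (adjusted p = 0.0439), and those of STMN2, a neuronal tubulin-binding protein, at 59.9 and 79.5 CPM in the knockdown and 287 and 247 CPM in the controls (adjusted p = 0.0429). Unlike DBH, both also fell in RNA (-0.47 for CHGA, adjusted p = 5.70e-04, and -1.04 for STMN2, adjusted p = 2.51e-07). HAND2, a transcription factor of the same list, had 138.5 and 281.7 CPM of footprints in the knockdown and 134.0 and 147.7 CPM in the controls (log2 fold change 0.58, adjusted p = 0.602). The part of noradrenergic genes as a group in the DBH result was not tested. SLC18A1 had 27 and 48 counts (11.2 and 12.0 CPM) in the knockdown and 56 and 125 (16.7 and 37.9 CPM) in the controls, with log2 fold change -1.23 (SE 0.618, adjusted p = 0.250). The controls of SLC18A1 differed from each other more than the lower of them differed from the knockdown, and without control replicate 2 the value was -0.55.

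DDC had 132 and 259 counts (54.9 and 65.0 CPM) in the knockdown and 380 and 233 (113 and 70.7 CPM) in the controls, with log2 fold change -0.62 (SE 0.540, adjusted p = 0.547). SLC6A2 had 81 and 230 counts (33.7 and 57.7 CPM) in the knockdown and 289 and 192 (86.2 and 58.2 CPM) in the controls (-0.66, SE 0.551, adjusted p = 0.527). In both genes one knockdown library lay close to one control library. GCH1 had 14 and 20 counts in the knockdown and 28 and 31 in the controls (-0.71, SE 0.837, adjusted p = 0.675). MAOA had 22 and 24 counts in the knockdown and 16 and 20 in the controls, and its scaled groups overlapped (0.47, SE 0.886, adjusted p = 0.810). SLC18A2, with 7 and 17 counts in the knockdown and 3 and 6 in the controls, did not pass the filter. The 95% intervals of GCH1 (-2.48 to 1.05) and MAOA (-1.40 to 2.34) show how little these depths can separate.

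**Figure D3:**
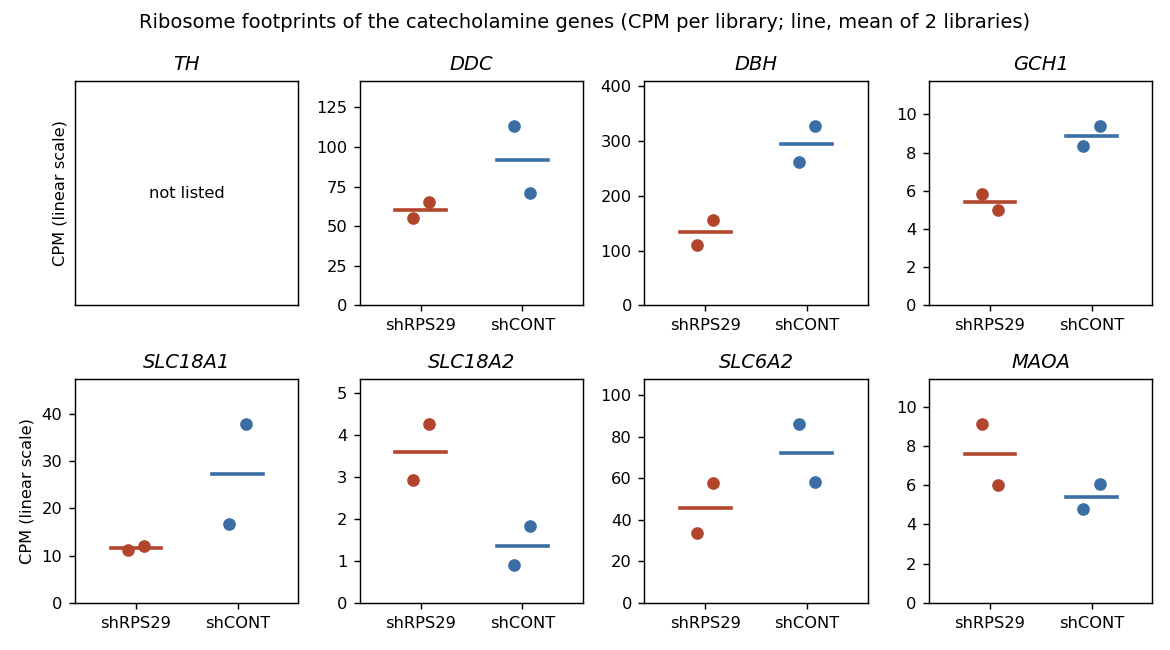
Ribosome footprints of each gene, in CPM on a linear axis of its own, with knockdown libraries (shRPS29) left of control libraries (shCONT). Each point is a library and each line the mean of 2, and TH is not listed. DBH shows the widest gap between groups, with 111 and 156 CPM in the knockdown and 262 and 328 CPM in the controls, and the MAOA groups overlap.

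Ribo-seq counts were also seen on genes with almost no RNA. In 141 genes with at most 0.1 CPM of RNA, the median Ribo-seq count per kb of gene span was 0.344 and 0.223 in the knockdown and 0.0614 and 0.0459 in the controls. These genes had to be listed for both assays, so genes not listed in Ribo-seq did not enter. Some low-RNA genes may be listed only through their knockdown counts. The rate and its difference between groups may therefore be too high, which was not tested, and the rate is only a rough guide. If that rate held over each gene, DBH would have 7.91 and 5.12 background counts in the knockdown and 1.41 and 1.05 in the controls, at most 2.97% of what was counted. For DDC, whose span is 107 kb, the share would be 27.9 and 9.21% in the knockdown and 1.73 and 2.11% in the controls. For SLC18A1 it would be 48.8 and 17.8% in the knockdown and 4.20 and 1.41% in the controls, and for SLC6A2 21.3 and 4.87% in the knockdown against 1.07 and 1.20% in the controls. For MAOA it would reach 144 and 85.3% in the knockdown and 35.2 and 21.1% in the controls. For GCH1 it would be 150 and 67.8% in the knockdown and 13.3 and 9.0% in the controls. For SLC18A2 it would be 188 and 50.2% in the knockdown and 78.4 and 29.3% in the controls. In knockdown replicate 1, the counts of these last 3 genes were below what the span alone would give, and in replicate 2 they were above it. After subtraction the log2 fold change was -1.17 for DBH, -0.87 for DDC, -1.77 for SLC18A1 and -0.81 for SLC6A2, with no test.

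**Figure D4:**
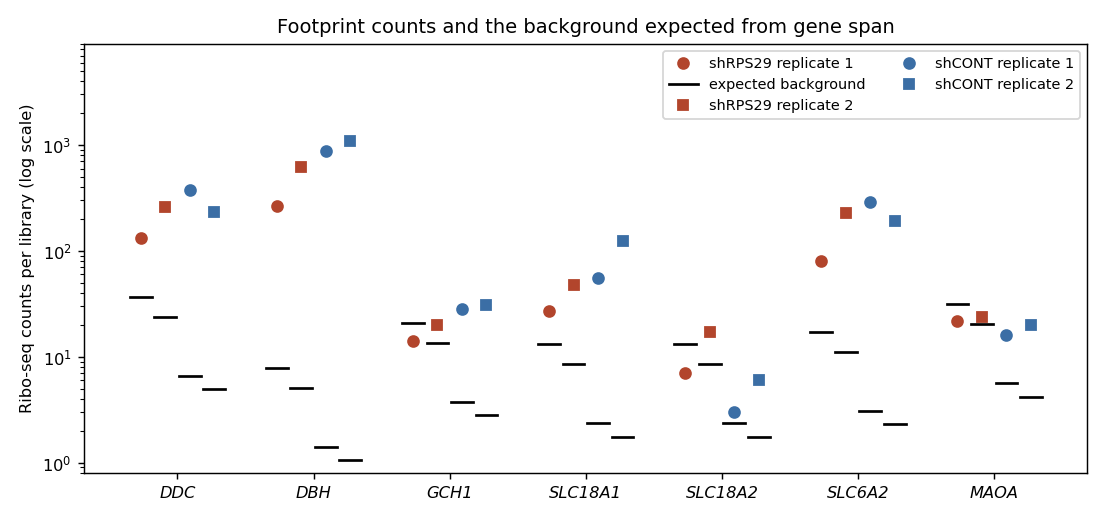
Ribo-seq counts per library on a log scale for the 7 listed genes (points, with knockdown left of control within each gene), with the background expected from gene span as a black line at each point. DBH lies far above its line in all 4 libraries, while those of GCH1, SLC18A2 and MAOA lie below theirs in knockdown replicate 1 and above in the other libraries.

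Receptor genes are set beside the same background. Of 14 receptor genes 6 were listed in Ribo-seq and 4 were tested, while ADRA2A and ADRA2C did not pass the count filter. All 4 were called higher in the knockdown by edgeR and DESeq2, against 7.96% of all genes in edgeR. RNA of DRD3 and ADRA1B was not listed. DRD3, ADRA1B and ADRA1A had at most 5 counts in a control library and passed the filter through their knockdown counts. The direction of their calls was thus largely fixed by the filter, and the count of 4 is not read against that share. limma-voom called DRD3 and DRD2 but not ADRA1B (adjusted p = 0.172), ADRA1A (adjusted p = 0.111) or RNLS, an amine gene described next (adjusted p = 0.0942). DRD3 had 113 and 132 footprint counts in the knockdown and 5 and 3 in the controls (adjusted p = 8.12e-04), ADRA1B 42 and 68 in the knockdown and 2 and 5 in the controls (adjusted p = 0.0114), and ADRA1A 20 and 33 in the knockdown and 0 and 1 in the controls (adjusted p = 0.0325). DRD2 had 129 and 82 in the knockdown and 27 and 13 in the controls (adjusted p = 0.0238). From span, 24.7 and 16.0 knockdown counts would be expected for DRD3, 42.7 and 27.7 for ADRA1B, 41.0 and 26.6 for ADRA1A and 22.7 and 14.7 for DRD2. RNLS, a flavoprotein proposed to degrade catecholamines, had 108 and 50 footprint counts in the knockdown and 0 and 8 in the controls (adjusted p = 0.0113), with 142 and 91.8 expected in the knockdown. RNLS likewise passed the filter through its knockdown counts. The calls of ADRA1A, ADRA1B, DRD2 and RNLS ended under some of the fits that leave out 1 library, and that of DRD3 did not. No gene of the tetrahydrobiopterin or regulator lists was called by edgeR or DESeq2 in Ribo-seq, and limma-voom called 1 regulator lower (GATA3, adjusted p = 0.0333). In edgeR 0 of 3 and 2 of 9 had an unadjusted p below 0.05, against 2735 of all 11853 genes tested. The 2 with an unadjusted p below 0.05 were PHOX2A, at 63.9 ± 46.9 CPM in the knockdown and 156.9 ± 7.55 CPM in the controls (adjusted p = 0.214 in edgeR), and GATA3, at 39.7 ± 20.8 CPM in the knockdown and 116.2 ± 5.68 CPM in the controls (SD, n = 2 each; adjusted p = 0.106 in edgeR). The aldehyde dehydrogenase ALDH1A1, not listed in RNA-seq, had 66 and 46 footprint counts in the knockdown and 45 and 5 in the controls, and the amine transporter SLC22A3 had 64 and 7 in the knockdown and 6 and 0 in the controls. Of these, ALDH1A1 did not pass the test and SLC22A3 did not pass the filter.

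The third question was whether footprints per RNA, a measure of translational efficiency (TE), changed. The assay-by-condition interaction in edgeR called none of the 6 genes, 1 of which had an unadjusted p below 0.05. Over 10648 genes, 2.90% were called higher and 1.35% lower, and 2837 had an unadjusted p below 0.05. The median over the 6 genes was -0.67, against -0.06 over all genes tested and -0.20 over those with at least 10 RNA CPM. DBH had 0.0835 and 0.118 CPM of footprints per CPM of RNA in the knockdown (each Ribo-seq library over the mean RNA of its group) and 0.206 and 0.258 in the controls. Its log2 fold change in TE was -1.20 (SE 0.393, adjusted p = 0.103), with a 95% interval of -2.10 to -0.30. DESeq2 called it (-1.18, adjusted p = 0.00905), in a fit that called 965 genes higher and 813 lower, against 309 and 144 in edgeR. With the replicate block edgeR did not call it (adjusted p = 0.0910). It was -1.55 without Ribo-seq knockdown replicate 2 and -0.96 without Ribo-seq knockdown replicate 1. These were the extremes of the 8 edgeR fits that leave out 1 library. Whether edgeR called DBH depended on which library was left out. The difference of the separate Ribo-seq and RNA-seq fits was -1.20 with a larger SE of 0.575.

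For the other genes the log2 fold change in TE was -1.01 for SLC18A1 (SE 0.549, adjusted p = 0.279), -0.70 for SLC6A2 (adjusted p = 0.347), -0.64 for GCH1 (adjusted p = 0.350), -0.39 for DDC (adjusted p = 0.550) and 0.74 for MAOA (adjusted p = 0.421). SLC6A2 was at -1.23 without Ribo-seq knockdown replicate 2 and at -0.37 without Ribo-seq knockdown replicate 1. SLC18A1 was at -1.52 without Ribo-seq control replicate 1. SLC18A1 was at -0.33 without Ribo-seq control replicate 2. Whether edgeR called SLC6A2 or SLC18A1 in TE likewise depended on which library was left out. Footprint CPM per RNA CPM was 0.335 and 0.359 for SLC18A1 in the knockdown and 0.430 and 0.975 in the controls. For GCH1 it was 0.120 and 0.103 in the knockdown and 0.163 and 0.184 in the controls, and for SLC6A2 0.119 and 0.203 in the knockdown and 0.316 and 0.213 in the controls. The groups of all 3 did not overlap, for SLC6A2 only narrowly. Each ratio uses the mean RNA of its group, so the spread of RNA is left out. The share of all genes without such overlap was not computed, so no result is drawn from it. SLC18A2, not tested, had 5.15 and 7.54 in the knockdown and 1.10 and 2.24 in the controls, from at most 17 counts a library in either assay. DDC (0.334 and 0.396 in the knockdown, 0.590 and 0.368 in the controls) overlapped between groups. MAOA went the other way, with 0.489 and 0.322 in the knockdown and 0.211 and 0.268 in the controls. Within a gene these ratios compare groups, and since lengths were not taken into account they are not ranked between genes.

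DBH took a share of the summed counts of these genes that differed little between groups in RNA. It was 70.8% (Wilson 95% interval 70.3 to 71.3) and 70.6% (70.1 to 71.1) in the knockdown and 68.6% (68.1 to 69.1) and 68.8% (68.3 to 69.3) in the controls. In footprints it was 48.5% (44.3 to 52.6) and 51.0% (48.2 to 53.8) in the knockdown and 53.2% (50.8 to 55.6) and 64.0% (61.7 to 66.3) in the controls. These intervals cover counting error only. Such shares do not depend on scaling, but the background expected from gene span was not subtracted. In knockdown replicate 1 it would be 2.97% of DBH counts and 21.3 to 188% of those of the other listed genes. In control replicate 1 it would be 0.161% for DBH and 1.07 to 78.4% for the others. Its part in the footprint shares was not tested. The footprint share of DBH was lower in both knockdown libraries, but the controls lay further from each other than the higher knockdown library lay from the lower control.

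**Figure D5:**
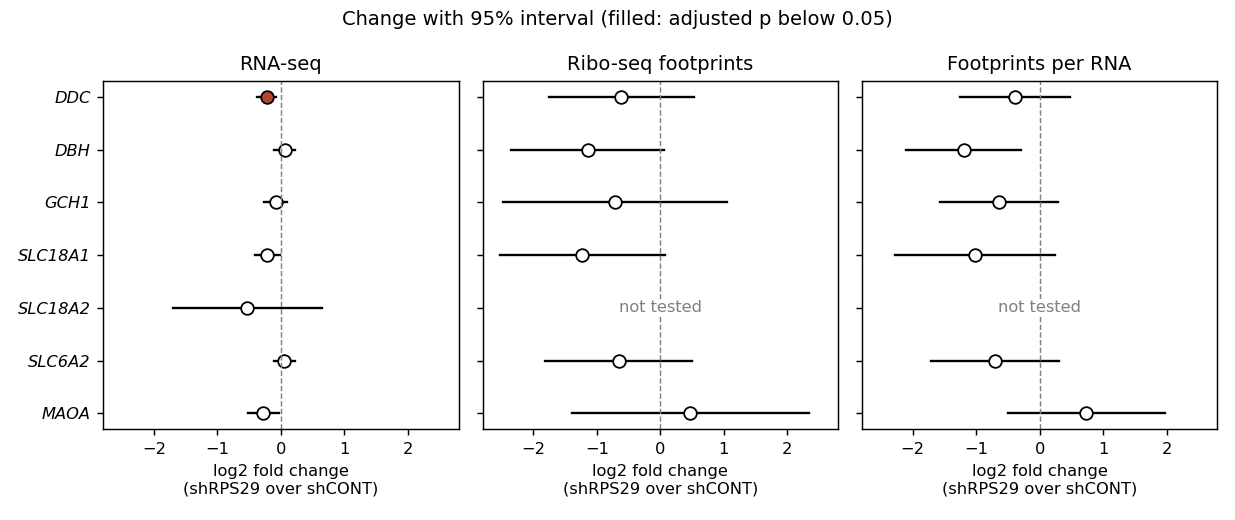
Log2 fold change (knockdown over control) with 95% intervals in RNA-seq, Ribo-seq and footprints per RNA for the 7 genes other than TH. Filled points have an adjusted p below 0.05, which only DDC RNA (-0.23) reached. RNA intervals are narrow except for SLC18A2, and the DBH interval lies below 0 only in footprints per RNA (-2.10 to -0.30).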

How the data were processed

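The authors deposited 2 tables, for RNA-seq and Ribo-seq, of raw counts by gene symbol. The submitters' processing notes name Trim Galore, Salmon, Bowtie2, STAR and featureCounts and build hg38, and per the labels' protocols RNA-seq used a stranded total RNA kit and Ribo-seq RNase I footprints of single ribosomes with rRNA depletion. Which tool made which table, versions, annotation, use of strand and any limit to coding exons are not stated by the labels, so Ribo-seq counts may include reads that are not footprints. Coding lengths were not used here, so levels of different genes are not ranked.

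Counts were tested with edgeR 4.0.16 (R 4.3.3; TMM, filterByExpr, quasi-likelihood F test, Benjamini-Hochberg over all genes tested, called below 0.05), with group as the only term. TE was the assay-by-condition interaction over all 8 libraries. SE is the absolute log2 fold change over the square root of F, and intervals use the test's degrees of freedom. Scripts were checked on simulated data with known changes. Alternatives were RLE, DESeq2 1.42.0, limma-voom (limma 3.58.1), other count filters, each library left out, a replicate block, Ribo-seq without its 20 genes with most counts, and background subtraction. A fit limited to genes with at least 10 RNA CPM was chosen after seeing the data. Members and lists were chosen with earlier results of these data known. All 8 members are named, with RPS29, genes of the related lists that were called or reached 10 CPM in a group, and the 3 genes most like the member with the smallest RNA-seq p. CHGA and STMN2 were named after their values were seen. Gene positions and promoter windows are from RefSeq (GRCh38.p14). Some genes of these lists are not reported here and do not enter the list counts.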

Additional observations from a re-analysis of the deposited data

Results flagged for a closer look

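DBH RNA was not lower in the knockdown (1276 and 1375 CPM, against 1270 and 1275 CPM in the controls), while its footprints were lower in both knockdown libraries (111 and 156 CPM, against 262 and 328 CPM in the controls). It was flagged because both libraries of each group lie on opposite sides in the 2 assays. Of all genes tested, 32.3% had both knockdown libraries above both controls in RNA-seq, and 26.7% had both below in Ribo-seq. The share of genes with this combination was not computed, so the pattern alone is not read as particular to DBH. The RNA groups are separated by under 1 CPM. The difference itself was tested as the change in footprints per RNA, which was -1.20 on the log2 scale and did not pass the adjusted threshold (edgeR adjusted p = 0.103). Ribo-seq knockdown replicate 1, with 266 DBH counts, correlated less with the controls than the other Ribo-seq knockdown library did. Its part in this result was not tested beyond leaving it out, which gave -0.96. Leaving out Ribo-seq knockdown replicate 2 instead gave -1.55.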

How the results depend on the processing

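The 6 tested members kept their direction in Ribo-seq and TE under every alternative that gave a value. In RNA-seq only SLC6A2 turned (-0.053 without shRPS29 replicate 2, 0.155 without replicate 1). RNA-seq members called lower, 1 in all, numbered 0 with the replicate block, where DDC was at -0.23 with adjusted p = 0.0713 in edgeR. Over the fits leaving out 1 library they numbered 0 to 2, and those higher 0 to 1. RNA-seq genes higher ranged there from 1225 to 2739 and lower from 1496 to 2876, Ribo-seq genes higher from 247 to 694 and lower from 5 to 53, TE genes higher from 0 to 1778 and lower from 0 to 2229, and TE members lower from 0 to 2. The main counts were 2126 and 2396, 944 and 72, and 309 and 144. Ribo-seq genes lower numbered 171 with DESeq2, 171 with limma-voom and 397 with the replicate block. TE genes numbered 965 higher and 813 lower with DESeq2, which called 1 member (DBH), and 22 and 0 with the replicate block. TE genes lower numbered 60 with no count filter and 250 with a mean of at least 50 counts. Limited to genes with at least 10 RNA CPM, Ribo-seq had 339 higher and 27 lower and TE 180 and 49. That scaling raised all Ribo-seq log2 fold changes by a median of 0.26 and TE by 0.25, leaving DBH at -0.89 and -0.95. The cause of these changes was not tested. Replicate numbers do not pair libraries by the labels, and deviations of same-numbered libraries correlated at -0.06 in RNA-seq and 0.10 in Ribo-seq. GCH1, MAOA and SLC18A2 gave no value after background subtraction.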

Other observations

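The vesicular acetylcholine transporter SLC18A3, of the same family as SLC18A1 and SLC18A2, had 1768 and 1489 RNA counts in the knockdown and 1675 and 1646 in the controls. CHAT, which makes acetylcholine, had 7 and 7 RNA counts in the knockdown and 9 and 13 in the controls. SLC5A7, also read as a cholinergic marker, had 24 and 25 in the knockdown and 5 and 10 in the controls (edgeR adjusted p = 0.0276). In footprints CHAT had 302 and 191 counts in the knockdown and 91 and 47 in the controls (edgeR adjusted p = 0.0487). SLC18A3 footprints went the other way, with 29 and 26 in the knockdown and 81 and 45 in the controls (edgeR adjusted p = 0.393). Background from gene span was not computed for these genes. FEV, a transcription factor of serotonergic neurons, had 4163 and 3524 RNA counts in the knockdown and 2989 and 3098 in the controls, whereas TPH1, TPH2 and SLC6A4, which make and take up serotonin, had at most 15 in any library.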
